A study of Mus musculus with 24 samples.

Results

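Zfp genes are the mouse zinc finger protein genes whose symbol is Zfp followed by a number. Of 402 such symbols in the deposited mRNA table, 348 had a gene-summed FPKM (fragments per kilobase of transcript, scaled to library size) of 1 or more on average over 12 libraries, out of 36096 genes. Those 348 genes, called members below, were chosen by this level alone, which did not use the difference between genotypes. Just inside the threshold stood Zfp472 at 1.01 FPKM and Zfp808 at 1.04 FPKM, and just outside it Zfp992 at 0.997 FPKM and Zfp229 at 0.964 FPKM. All 348 passed the filter on low values, and the lowest expected count of any member in any library was 6.

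RNA of the medial frontal cortex was profiled at postnatal day 28 by sequencing of ribosomal RNA-depleted libraries. The genotype called OE here, Dnmt3l;Emx1-cre, was compared with the control genotype, CON, which carried Emx1-cre alone. There were 3 libraries each of OE males (OE-M), OE females (OE-F), CON males (CON-M) and CON females (CON-F), so Cre was present in every group, and the labels describe the Dnmt3l allele no further. Emx1-cre acts in the excitatory neurons and glia of the dorsal forebrain, and not in interneurons, microglia or vessels of the same tissue. In which cells the Dnmt3l allele was active was not measured here. The labels do not say whether each library came from a separate animal, so p-values measure the spread between these libraries, which may be partly technical.

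Most Zfp genes encode proteins with tandem C2H2 fingers that each contact a few bases of DNA. Many also carry a KRAB domain, which recruits the corepressor Trim28 and with it the histone methyltransferase Setdb1 and HP1 proteins, and such proteins silence retrotransposons and guard imprinted loci. KRAB genes arose by repeated tandem duplication and often sit in dense clusters, while the remaining Zfp genes include activators, RNA-binding proteins and regulators of neuronal development. Dnmt3l encodes a protein that has no methyltransferase activity of its own and stimulates Dnmt3a and Dnmt3b.

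By the KEGG ortholog groups in the deposited table, 237 members belonged to the group of KRAB-containing zinc finger proteins, 8 in a group with KRAB and SCAN domains, 7 in a SCAN group and 96 in none of these. An ortholog group is not a check of the domain: the table also puts Zfp148 and Zfp366 in the KRAB group. The members of highest level were Zfp365 at 119 FPKM, Zfp523 at 88.7 FPKM, Zfp207 at 71.9 FPKM, Zfp445 at 61.4 FPKM and Zfp488 at 59.2 FPKM, as means of 12 libraries. Levels were lower in the KRAB group, with a median of 4.91 FPKM, than among the 96 members of no such group, with a median of 11.2 FPKM.

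Promoter sequences from RefSeq (build GRCm38.p6, 250 bases before to 50 after the start of the gene) matched 287 of the 348 members by symbol. The promoters below were chosen after all had been read, among members whose RNA was called as changed, because they hold a motif that several of them share. Capitals mark matches to the core of the ZNF143 motif (ACTACA, any 2 bases, TCCC), bound by a zinc finger activator, and to TGACGTCA, the cyclic AMP response element bound by CREB, each searched on both strands. Zfp189 (chr4:49520926-49521225, plus strand) and Zfp260 (chr7:30094826-30095125, plus strand) hold the first motif in reverse complement, beginning 22 and 29 bases before the start. The RefSeq start of Zfp260 lies 299 bases inside the gene of the deposited table. Zfp874a (chr13:67451575-67451874, minus strand) and Zfp874b (chr13:67484204-67484503, minus strand) hold both motifs and share a run of 45 identical bases. Zfp266 (chr9:20521370-20521669, minus strand), Zfp426 (chr9:20492697-20492996, minus strand), Zfp523 (chr17:28176946-28177245, plus strand, 1 of 2 RefSeq starts) and Zfp335 (chr2:164911701-164912000, minus strand) hold the second motif.
Zfp189: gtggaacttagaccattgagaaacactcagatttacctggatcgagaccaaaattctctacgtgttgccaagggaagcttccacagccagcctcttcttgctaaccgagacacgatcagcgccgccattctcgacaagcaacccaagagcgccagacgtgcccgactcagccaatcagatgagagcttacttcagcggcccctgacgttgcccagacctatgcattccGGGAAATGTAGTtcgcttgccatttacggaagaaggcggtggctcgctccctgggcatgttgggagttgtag
Zfp260: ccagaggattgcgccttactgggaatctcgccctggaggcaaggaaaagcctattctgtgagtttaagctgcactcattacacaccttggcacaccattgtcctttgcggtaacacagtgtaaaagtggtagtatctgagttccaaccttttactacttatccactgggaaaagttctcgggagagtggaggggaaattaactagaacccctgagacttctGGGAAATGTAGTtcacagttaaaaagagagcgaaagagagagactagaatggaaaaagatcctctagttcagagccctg
Zfp874a: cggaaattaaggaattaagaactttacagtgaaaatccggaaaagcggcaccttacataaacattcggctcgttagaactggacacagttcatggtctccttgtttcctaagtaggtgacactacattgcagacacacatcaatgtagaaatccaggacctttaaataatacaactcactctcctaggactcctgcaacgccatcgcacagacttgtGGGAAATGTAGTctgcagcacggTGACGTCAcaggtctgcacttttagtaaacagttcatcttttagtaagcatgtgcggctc
Zfp874b: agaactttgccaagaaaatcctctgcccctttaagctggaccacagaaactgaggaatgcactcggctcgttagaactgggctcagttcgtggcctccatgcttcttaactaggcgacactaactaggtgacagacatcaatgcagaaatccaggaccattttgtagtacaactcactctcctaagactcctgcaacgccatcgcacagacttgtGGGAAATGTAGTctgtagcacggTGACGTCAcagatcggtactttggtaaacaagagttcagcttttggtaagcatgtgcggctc
Zfp266: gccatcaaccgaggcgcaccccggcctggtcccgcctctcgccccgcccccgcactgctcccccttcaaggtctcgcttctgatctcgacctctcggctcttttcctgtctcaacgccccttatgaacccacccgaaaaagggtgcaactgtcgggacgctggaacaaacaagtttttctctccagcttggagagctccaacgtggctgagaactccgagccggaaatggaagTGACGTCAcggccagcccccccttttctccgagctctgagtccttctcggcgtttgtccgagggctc
Zfp426: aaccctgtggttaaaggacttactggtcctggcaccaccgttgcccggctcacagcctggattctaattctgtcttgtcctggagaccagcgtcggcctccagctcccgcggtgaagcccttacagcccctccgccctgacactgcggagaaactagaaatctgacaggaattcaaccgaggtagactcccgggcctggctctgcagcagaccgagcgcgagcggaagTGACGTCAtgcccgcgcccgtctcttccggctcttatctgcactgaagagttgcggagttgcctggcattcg
Zfp523: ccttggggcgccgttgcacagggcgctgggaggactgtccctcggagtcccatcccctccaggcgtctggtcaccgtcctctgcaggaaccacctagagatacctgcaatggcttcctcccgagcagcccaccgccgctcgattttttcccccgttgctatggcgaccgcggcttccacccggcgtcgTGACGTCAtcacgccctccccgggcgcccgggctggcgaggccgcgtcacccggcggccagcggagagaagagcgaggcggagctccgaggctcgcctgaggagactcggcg
Zfp335: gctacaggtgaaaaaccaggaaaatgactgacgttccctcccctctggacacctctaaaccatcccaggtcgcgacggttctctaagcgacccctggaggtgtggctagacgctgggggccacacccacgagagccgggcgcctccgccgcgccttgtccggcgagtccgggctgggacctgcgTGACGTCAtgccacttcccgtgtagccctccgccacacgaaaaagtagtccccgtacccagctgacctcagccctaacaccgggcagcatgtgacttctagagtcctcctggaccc

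Promoters of members held the ZNF143 core in 51 of 287 cases (17.8%), against 1.81% of all 32851 promoters in the table. This motif was searched for after members' promoters had been read, so its higher share there may be partly built in. Those 32851 were taken whatever the level of the gene, while members were chosen by a level of 1 FPKM or more. The motif was mostly in the KRAB group, with 48 of 206 promoters, against 2 of 71 of the members in no such group, and 42 of 173 promoters of clustered members held it, against 9 of 114 of the others. It was present in 12 of 73 promoters of members that fell, 1 of 20 of those that rose and 38 of 194 of those not called. TGACGTCA was present in 8 promoters (2.79%, against 1.79% of all), 3 of them in 1 cluster on chromosome 13 and 2 in 1 cluster on chromosome 9. Of those 8 members 4 fell, 2 rose and 2 were not called, beside 33.0% of all members and 51.5% of all genes called in either direction. The promoters with TGACGTCA printed above are those of the members called, and the 2 of members not called were not printed. A link of the motif to the changes was not tested. GCCATNTT, a YY1 motif, was in 13.9% of members' promoters, against 6.05% of all, and GGGCGG, an SP1 motif, in 44.6%, against 35.7%. A match describes these letters and is not evidence of binding, and tandem copies share sequence by descent.

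**Figure D1:**
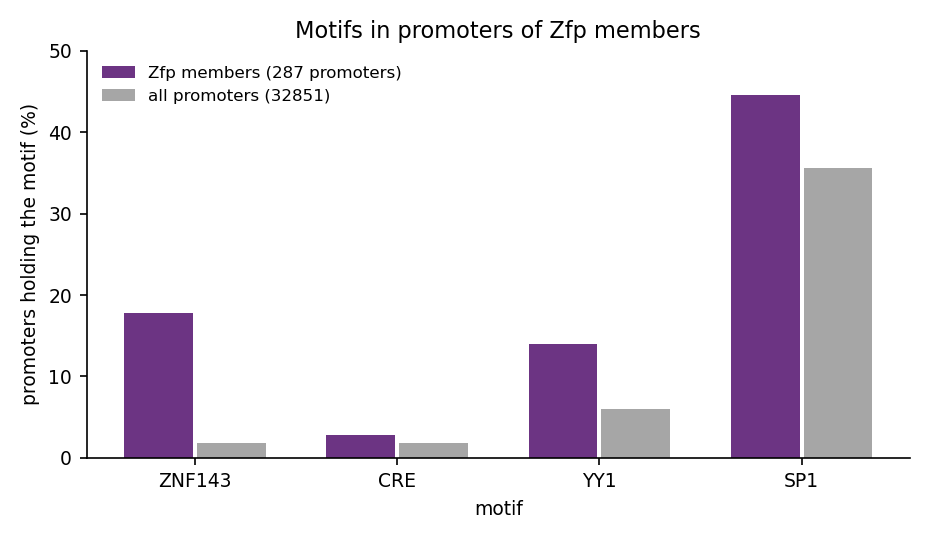
Share of promoters (y axis, percent, from 0) that hold each of 4 motifs (x axis) on either strand, for 287 promoters of Zfp members (purple) and all 32851 promoters of the RefSeq table (grey). The ZNF143 motif is in 17.8% of members' promoters and 1.81% of all, the widest ratio of the 4, and the SP1 motif is the most frequent in both sets. The ZNF143 motif was searched for after members' promoters had been read.

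Total expected counts per library were 22144970 to 26842726 in OE and 27074837 to 32100277 in CON. Dnmt3l itself had 603, 609 and 521 counts in OE-M and 1179, 532 and 600 in OE-F, against 1, 1 and 0 in CON-M and 0, 0 and 3 in CON-F (log2 change 9.76 ± 0.36 SE, edgeR adjusted p = 6.5e-09). CON-M replicate 3 and CON-F replicates 1 and 2 held liver transcripts, with summed CPM (counts scaled to library size) of 71.8 to 93.0 over 10 liver markers, against 0.306 to 1.89 in the other 9 libraries. The fit without these 3 libraries keeps CON-M replicates 1 and 2 and, of CON-F, replicate 3 alone. For calls lost in that fit, the liver transcripts and the loss of controls cannot be told apart. OE-F replicate 1, with the highest Dnmt3l count, stood apart from the other 5 OE libraries: its astrocyte markers summed to 6774 CPM, against 10590 to 12800 CPM in the others. The astrocyte sum was 6045 to 6622 CPM in CON, and 5 of 6 astrocyte markers were higher and 1 lower in OE by edgeR. Markers of microglia (203.7 to 405.9 CPM in OE, 182.1 to 212.9 CPM in CON, 5 of 6 higher) and of endothelium and pericytes (302.0 to 584 CPM in OE, 267 to 298 CPM in CON, 6 of 6 higher) moved in the same direction. Excitatory neuron markers summed to 5967 to 7179 CPM in OE, against 4523 to 5495 CPM in CON, with 2 of 8 higher and 2 lower, and interneuron markers to 478.1 to 600.7 CPM in OE, against 600.5 to 687.7 CPM in CON, with 2 of 6 higher and 3 lower. Mitochondrially encoded mRNAs summed to 36900 to 77300 CPM in OE, against 24840 to 35050 CPM in CON, with 9 of 13 higher. Of oligodendrocyte precursor markers 3 of 4 were higher, and of red blood cell markers 4 of 5 were lower. No marker of these lists was at 0 in all libraries, and the part of cell composition in the results below was not tested.

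Averaged over sexes, 28 members rose and 87 fell in OE (edgeR quasi-likelihood test, adjusted p below 0.05 over 15786 genes). The share of members that fell, 25.0%, was near the 26.4% of all genes tested, while the share that rose, 8.05%, was below the 25.2% of all genes. In either direction 33.0% of members were called, against 51.5% of all genes. The median log2 change of the members was −0.11, against 0.02 over all genes tested, and 226 of 348 (64.9%) were below 0, against 48.6% of all genes. Changes were modest in size, with a median absolute log2 change of 0.20, against 0.33 over all genes. In bulk tissue, fewer cells of a type and less RNA per cell cannot be told apart.

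The lower share called among members was present at each level of expression. Among members at 1 to under 2 FPKM 10.2% were called, against 31.5% of all genes tested in that range, and at 5 to under 10 FPKM 48.2%, against 53.9%. At 20 FPKM or more 16 of 36 members were called (44.4%), against 68.8% of all genes there. Falls were most frequent at 5 to under 10 FPKM, where 44 of 110 members fell (40.0%), against 29.5% of all genes.

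All 6 OE libraries lay below all 6 CON libraries for 16 members, against 6.83% of all genes, and above them for 7 members, against 5.47% of all genes. The 16 were Zfp189, Zfp941, Zfp706, Zfp709, Zfp260, Zfp81, Zfp281, Zfp804a, Zfp770, Zfp667, Zfp617, Zfp563, Zfp518b, Zfp574, Zfp395 and Zfp319, and the 7 were Zfp236, Zfp384, Zfp407, Zfp101, Zfp523, Zfp853 and Zfp692. The split between rises and falls differed between settings. With upper quartile scaling 42 members rose and 72 fell (36.8% higher among those called, against 24.3% with TMM), and with limma 10 rose and 105 fell on log2(FPKM + 0.1) (8.7% higher) and 9 rose and 101 fell on log2(FPKM + 1) (8.18% higher). Without the 3 CON libraries that held liver transcripts, fewer members were called, and fewer of all genes too. That fit keeps a single CON-F library, so its counts of members called are not given. Its median log2 change was −0.17 over members, against 0.006 over all genes. Without OE-F replicate 1 37 members rose and 137 fell. That fit called 62.9% of all genes, against 51.5% with all libraries.

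Most of the largest falls were in genes of modest level. Zfp189, a KRAB gene known in mouse prefrontal cortex as a CREB target linked to stress resilience (ENSMUSG00000039634, chromosome 4, 49521176 to 49531517, GRCm38), had 10.8, 10.04 and 8.81 CPM in OE-M and 12.3, 11.6 and 13.7 CPM in OE-F, against 23.8, 20.1 and 20.5 CPM in CON-M and 18.9, 19.6 and 18.3 CPM in CON-F. The 6 OE libraries lay in a tight range below every CON library, OE-F replicate 1 among them. Its log2 change was −0.86 ± 0.08 (SE, edgeR adjusted p = 0.000115). The female change was −0.59 (adjusted p = 0.0285) and the male change −1.12 (adjusted p = 0.000406), with an unadjusted p of 0.00744 and an adjusted p of 0.68 for their difference.

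Zfp941, another KRAB group gene (chromosome 7, 140807449 to 140822178), had 12.7, 13.7 and 16.4 CPM in OE-M and 15.8, 17.8 and 14.3 CPM in OE-F, against 25.1, 24.2 and 21.5 CPM in CON-M and 27.6, 25.9 and 23.6 CPM in CON-F. The groups did not overlap in either sex. The log2 change was −0.71 ± 0.09 (SE, edgeR adjusted p = 0.000237), with a similar size in males (−0.73) and females (−0.69).

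Zfp706, which encodes a small protein with a single finger that holds back self-renewal in mouse embryonic stem cells (chromosome 15, 36997027 to 37007773), was the most abundant of the 8 largest falls, at 41.2 FPKM. It had 52.3, 52.6 and 58.2 CPM in OE-M and 91.5, 57.4 and 58.0 CPM in OE-F, against 100.7, 106.1 and 98.3 CPM in CON-M and 92.6, 95.2 and 99.6 CPM in CON-F. OE-F replicate 1 was just under the lowest CON library, and the other 5 OE libraries were far below it. The log2 change was −0.69 ± 0.10 (SE, edgeR adjusted p = 0.000391).

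Zfp239, a KRAB group member (chromosome 6, 117862100 to 117873291), showed the same split. Its values were 16.7, 14.9 and 18.1 CPM in OE-M and 28.4, 13.3 and 13.9 CPM in OE-F, against 29.6, 25.9 and 30.1 CPM in CON-M and 29.97, 29.9 and 30.2 CPM in CON-F. OE-F replicate 1 lay inside the CON range, and the rest of the OE libraries were clear of it (log2 change −0.74 ± 0.16 SE, edgeR adjusted p = 0.0021). Zfp709 on chromosome 8 had 7.83, 8.11 and 11.2 CPM in OE-M and 11.7, 10.1 and 7.98 CPM in OE-F, against 15.2, 13.9 and 14.9 CPM in CON-M and 15.2, 14.3 and 16.4 CPM in CON-F. There the groups did not overlap (log2 change −0.66 ± 0.11 SE, edgeR adjusted p = 0.000716).

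The fall with the largest fitted change, Zfp791 (log2 change −0.92 ± 0.24 SE, edgeR adjusted p = 0.00672), was in a scarce RNA. It had 1.93, 1.65 and 1.55 CPM in OE-M and 3.15, 1.67 and 1.03 CPM in OE-F, against 2.84, 3.57 and 3.597 CPM in CON-M and 3.06, 3.01 and 4.72 CPM in CON-F, so OE-F replicate 1 again lay among the CON libraries. Zfp597 averaged 14.2 ± 1.39 CPM in OE-M and 17.2 ± 5.42 CPM in OE-F, against 25.7 ± 0.626 CPM in CON-M and 24.6 ± 2.172 CPM in CON-F (SD, n = 3 each; log2 change −0.68, edgeR adjusted p = 0.000788). It overlaps Naa60 and Zfp174 on the opposite strand, and although the libraries kept strand, no source used here gives whether counting used it. Zfp783 averaged 6.93 ± 0.38 CPM in OE-M and 5.02 ± 1.47 CPM in OE-F, against 9.87 ± 0.64 CPM in CON-M and 8.39 ± 1.36 CPM in CON-F (SD, n = 3 each; log2 change −0.63, edgeR adjusted p = 0.00272). It overlaps Zfp956 on the same strand, so its reads may be shared, and its adjusted p no longer passed 0.05 without the 3 CON libraries with liver transcripts (log2 change −0.49).

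Of the 8 largest rises, Zfp523 was by far the most abundant, at 88.7 FPKM. It is the mouse ortholog of ZNF76, a close relative of ZNF143 (chromosome 17, 28177129 to 28205886). Zfp523 had 210.9, 221.3 and 193.7 CPM in OE-M and 138.0, 171.9 and 184.4 CPM in OE-F, against 127.2, 111.8 and 132.9 CPM in CON-M and 125.1, 134.6 and 115.8 CPM in CON-F. The groups did not overlap, with OE-F replicate 1 the lowest OE library. The log2 change was 0.57 ± 0.08 (SE, edgeR adjusted p = 0.00031).

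Zfp366, whose protein, also called DC-SCRIPT, acts in dendritic cells as a transcriptional corepressor (chromosome 13, 99184823 to 99250656), had the largest rise. It had 32.0, 33.7 and 25.4 CPM in OE-M and 14.3, 17.8 and 32.1 CPM in OE-F, against 16.4, 15.1 and 14.7 CPM in CON-M and 13.5, 12.5 and 13.6 CPM in CON-F. The 3 male OE libraries and OE-F replicate 3 stood at about the same height, OE-F replicate 2 was slightly above the CON range and OE-F replicate 1 inside it. The log2 change was 0.84 ± 0.16 (SE, edgeR adjusted p = 0.00114).

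Zfp692, which encodes a C2H2 protein outside the KRAB group (chromosome 11, 58307069 to 58314627), had 18.0, 19.9 and 19.1 CPM in OE-M and 15.7, 21.5 and 17.0 CPM in OE-F, against 11.2, 11.98 and 14.1 CPM in CON-M and 12.7, 12.3 and 10.4 CPM in CON-F. Its rise was the same in both sexes, 0.61 on the log2 scale in males (adjusted p = 0.00467) and 0.61 in females (edgeR adjusted p = 0.0334), and the groups did not overlap. Zfp335, whose human ortholog is mutated in a form of microcephaly, had 57.3, 46.6 and 48.0 CPM in OE-M and 37.1, 48.8 and 56.5 CPM in OE-F, against 34.2, 33.6 and 34.7 CPM in CON-M and 35.5, 37.3 and 27.97 CPM in CON-F. All but OE-F replicate 1 lay above the CON range (log2 change 0.53 ± 0.11 SE, edgeR adjusted p = 0.00142).

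Zfp853 averaged 13.1 ± 2.04 CPM in OE-M and 10.2 ± 1.63 CPM in OE-F, against 7.65 ± 0.874 CPM in CON-M and 7.49 ± 1.08 CPM in CON-F (SD, n = 3 each; log2 change 0.61, edgeR adjusted p = 0.00124). Zfp469, whose human ortholog is mutated in brittle cornea syndrome, averaged 32.4 ± 1.63 CPM in OE-M and 25.1 ± 5.13 CPM in OE-F, against 19.2 ± 1.13 CPM in CON-M and 19.0 ± 1.86 CPM in CON-F (SD, n = 3 each; log2 change 0.58, edgeR adjusted p = 0.00062). Zfp469 overlaps Galnt2l on the same strand, and Zfp335 overlaps Pcif1 on the opposite one. The rises of Zfp366, Zfp692, Zfp853, Zfp469, Zfp523 and Zfp335 were called in every setting listed in the closing section. Zfp963 (log2 change 0.44, edgeR adjusted p = 0.014) and Zfp217 (0.43, adjusted p = 0.00756) lost the call without the 3 CON libraries with liver transcripts, at 0.25 and 0.40. Both were also lost with limma on log2(FPKM + 1).

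**Figure D2:**
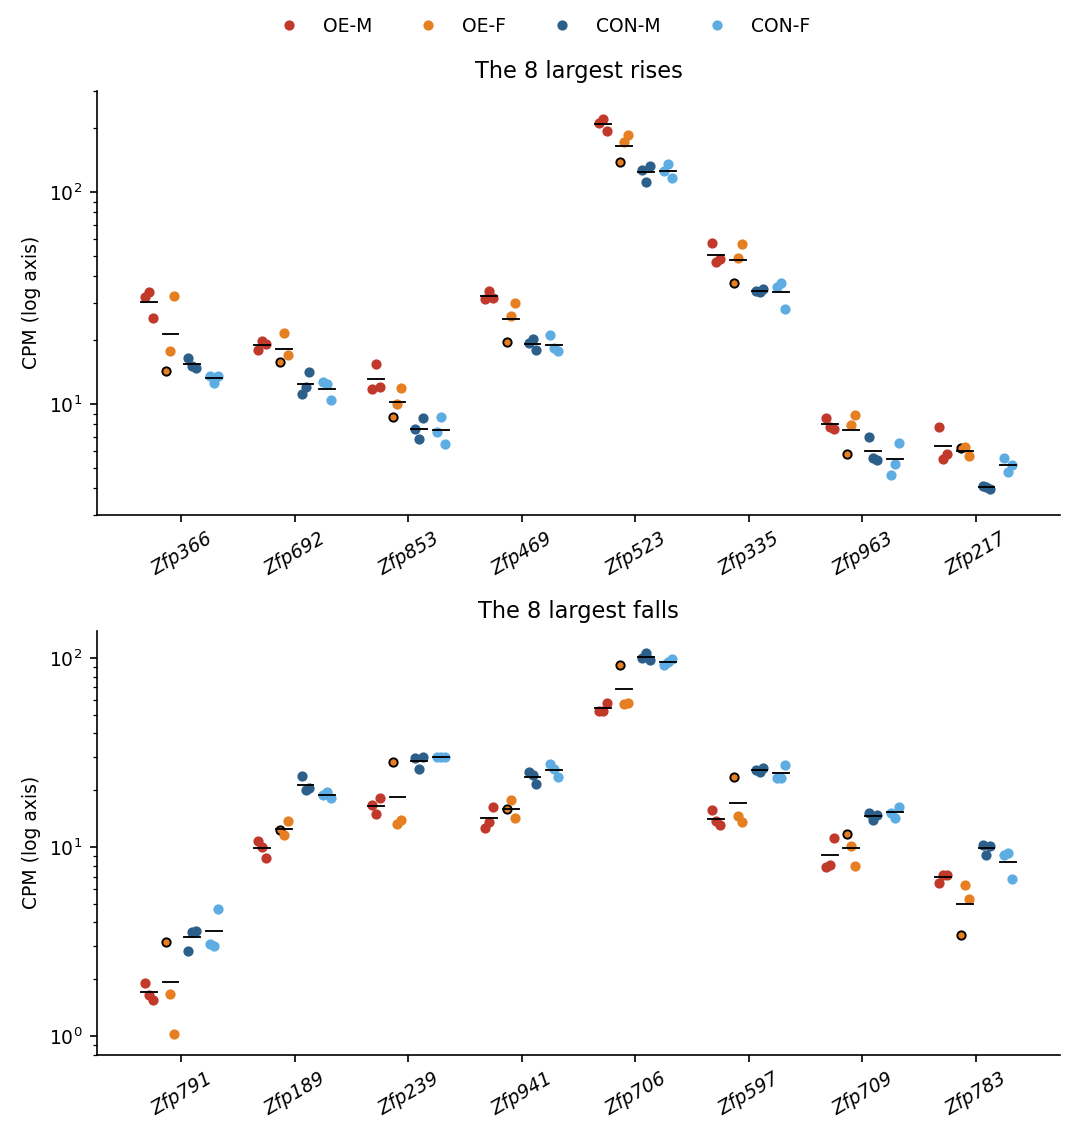
CPM (y axis, log scale) of the 8 Zfp members with the largest rise (top) and the 8 with the largest fall (bottom) in OE-M (red), OE-F (orange), CON-M (dark blue) and CON-F (light blue), 1 point a library, with the group mean as a bar. OE-F replicate 1 is ringed in black, and for Zfp706, at 91.5 CPM, it lies near the CON libraries while the other 5 OE libraries are at 52.3 to 58.2 CPM.

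Of 29 members chosen for a known role, 3 rose (Zfp335, Zfp217 and Zfp57), 5 fell (Zfp189, Zfp148, Zfp281, Zfp804a and Zfp831) and 21 were not called. The 8 called stand beside 33.0% of all members and 51.5% of all genes. Zfp57, a guard of imprinted loci, averaged 10.6 ± 0.96 CPM in OE-M and 10.1 ± 2.41 CPM in OE-F, against 7.68 ± 1.17 CPM in CON-M and 7.91 ± 1.41 CPM in CON-F (SD, n = 3 each; log2 change 0.41, edgeR adjusted p = 0.0223). That call was lost without OE-M replicate 1 (0.38), OE-F replicate 2 (0.30), CON-M replicate 3 (0.33) or CON-F replicate 2 (0.34), without the 3 CON libraries with liver transcripts (0.28) and with limma on log2(FPKM + 0.1) (0.25) and log2(FPKM + 1) (0.22). Zfp445, which shares this role, averaged 180.9 ± 15.7 CPM in OE-M and 195.3 ± 17.9 CPM in OE-F, against 178.5 ± 3.48 CPM in CON-M and 182.2 ± 8.57 CPM in CON-F (SD, n = 3 each), with a log2 change of 0.06 ± 0.06 (SE; adjusted p = 0.459 by edgeR). Zfp809, which silences retroviruses in mouse embryonic cells, had a log2 change of −0.17 (adjusted p = 0.0509), and Zfp568, a repressor of a placental Igf2 transcript, one of 0.03 (adjusted p = 0.875).

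Several transcription factors outside the imprinting system fell. Zfp148, which binds GC-rich promoters (chromosome 16, 33380836 to 33504363), had 93.6, 98.8 and 96.1 CPM in OE-M and 171.4, 105.1 and 92.8 CPM in OE-F, against 161.9, 152.8 and 153.4 CPM in CON-M and 162.2, 149.5 and 170.8 CPM in CON-F. OE-F replicate 1 was the highest of all 12 libraries, and the other 5 OE libraries lay below every CON library. The log2 change was −0.54 ± 0.12 (SE, edgeR adjusted p = 0.00261). Zfp281, a related factor known for its part in the exit of mouse stem cells from pluripotency, had 35.9, 35.5 and 35.1 CPM in OE-M and 52.9, 38.1 and 40.9 CPM in OE-F, against 58.1, 58.8 and 53.7 CPM in CON-M and 55.7, 56.5 and 58.1 CPM in CON-F. Here no OE library reached the CON range (log2 change −0.52 ± 0.08 SE, edgeR adjusted p = 0.000385).

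Zfp804a, whose human ortholog is a risk gene of schizophrenia (chromosome 2, 82053222 to 82259879), had 18.3, 20.3 and 28.6 CPM in OE-M and 23.7, 27.2 and 23.8 CPM in OE-F, against 33.3, 38.4 and 30.5 CPM in CON-M and 30.7, 31.1 and 32.6 CPM in CON-F. The groups did not overlap (log2 change −0.47 ± 0.11 SE, edgeR adjusted p = 0.00276). Zfp831 had a log2 change of −0.25 (edgeR adjusted p = 0.0134), which lost its call without the 3 CON libraries with liver transcripts (−0.31). Among members of high level, Zfp488, a factor of oligodendrocyte differentiation, had 282.0, 237.7 and 268.1 CPM in OE-M and 248.2, 328.8 and 243.9 CPM in OE-F, against 203.5, 258.2 and 217.6 CPM in CON-M and 204.6, 192.6 and 216.4 CPM in CON-F. Its groups overlapped through CON-M replicate 2 (log2 change 0.32, edgeR adjusted p = 0.0102), and oligodendrocyte markers summed to 3201 to 10380 CPM in OE, against 3301 to 6094 CPM in CON, with 4 of 5 higher. Without OE-F replicate 1 that sum was 6004 to 10380 CPM in OE, and the part of oligodendrocytes in the Zfp488 values was not tested. The call for Zfp488 was lost on log2(FPKM + 0.1) with limma (0.22) and without the 3 CON libraries with liver transcripts (0.24).

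Among the 21 not called were Zfp365, the member of highest level, with a log2 change of 0.08 (edgeR adjusted p = 0.36), and Zfp207, a spindle assembly protein, with one of 0.05 (adjusted p = 0.458). Zfp36, which encodes the mRNA decay factor tristetraprolin and is induced by activity, had a log2 change of 0.14 (adjusted p = 0.504) at only 1.54 FPKM. Also not called were Zfp536 −0.03 (adjusted p = 0.736), Zfp462 0.00 (adjusted p = 0.98), Zfp292 −0.02 (adjusted p = 0.834) and Zfp423 0.20 (edgeR adjusted p = 0.15), all as log2 changes. These genes are tied to neuronal development or its disorders, as are Zfp335 and Zfp804a, which were called.

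By class, in the KRAB group 13 of 237 rose and 61 fell, with a median log2 change of −0.15 and 70.5% below 0. The share that fell there, 25.7%, was near the 26.4% of all genes, and the share that rose, 5.49%, stands beside 25.2% of all genes. Of the 96 members of no KRAB or SCAN group 15 rose and 21 fell (15.6% and 21.9%), with a median log2 change of −0.01 and 51.0% below 0. The 8 members with KRAB and SCAN domains had no rise and 2 falls (median log2 change 0.06), and the 7 of the SCAN group no rise and 3 falls (median −0.16). The difference between the groups was not tested.

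By library, the KRAB group's median log2 ratio to the mean of the 6 CON libraries was −0.20, −0.26 and −0.17 in OE-M and 0.04, −0.02 and −0.22 in OE-F. CON libraries ran from −0.04 to 0.07. The summed level of the KRAB group was 3742, 3692 and 3706 CPM in OE-M and 4518, 4230 and 3726 CPM in OE-F, against 4281 to 4596 CPM in CON. All 3 male OE libraries and OE-F replicate 3 were thus low by both measures. OE-F replicate 2 was just under the CON range by summed level and inside it by median ratio, and OE-F replicate 1 was inside it by both. The 87 members that fell were chosen as lower in these same libraries, so their place below the CON range is a description. Of them 19 (21.8%) were below every CON library in OE-F replicate 1, against 31.6% of all 4160 genes that fell. In each of the other 5 OE libraries 75 to 85 were (86.2% to 97.7%), near the 92.7% to 96.1% of all genes that fell.

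**Figure D3:**
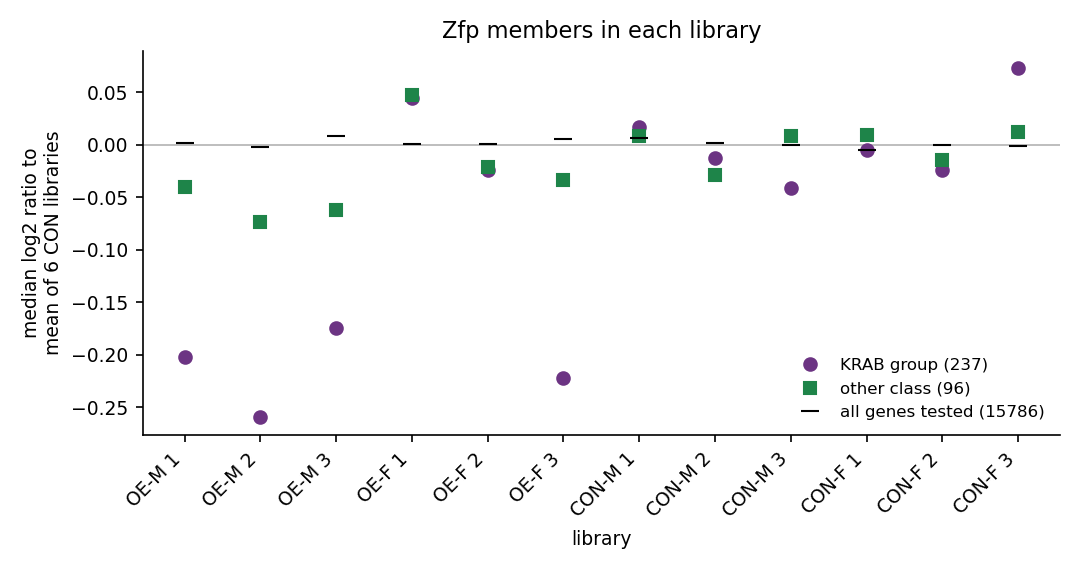
Median log2 ratio of each library to the mean of the 6 CON libraries (y axis) for the 237 KRAB group members (purple circles), the 96 members of no KRAB or SCAN group (green squares) and all 15786 genes tested (black dashes), by library (x axis). The KRAB group is at −0.17 to −0.26 in 4 of 6 OE libraries, while OE-F replicates 1 and 2 lie at 0.04 and −0.02, within the CON range of −0.04 to 0.07.

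In males 16 members rose and 81 fell by edgeR, against 20.4% and 22.7% of all genes (43.1% in either direction). In females 3 members rose and 8 fell, against 4.73% and 4.38% of all genes (9.1% in either direction). Of the 81 members that fell in males, 73 had a female change below 0, with median log2 changes of −0.53 in males and −0.23 in females. Over all genes it was 3465 of 3577, with medians of −0.62 in males and −0.37 in females. Both sets were chosen by their male values, so the larger male medians are partly built in. Over all 348 members, without that choice, the medians were −0.15 in males and −0.05 in females. Of the 16 members that rose in males, 14 had a female change above 0, against 3113 of 3225 over all genes. Members called in both sexes numbered 6 lower and 2 higher, against 630 and 634 of all genes. The female counts moved with OE-F replicate 1: without that library 31 members rose and 79 fell in females. Averaged over sexes, that fit also called more of all genes, 62.9% against 51.5% with all libraries. Leaving out any other single library gave at most 1 rise and 4 falls in females. The female share of all genes called in these fits is not given here, so these counts do not set members apart from other genes.

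The difference between the effect in males and that in females was called for 0 of 348 members by edgeR, as also by DESeq2 and limma, and for 0% of all genes, with the smallest adjusted p of a member at 0.68. At an unadjusted p below 0.05 there were 23 members, against 7.09% of all genes, a like share. The smallest unadjusted p, 0.00255, belonged to Zfp993, with 4.98, 4.85 and 4.14 CPM in OE-M and 3.42, 2.59 and 4.29 CPM in OE-F, against 3.01, 1.77 and 2.96 CPM in CON-M and 4.80, 5.65 and 3.84 CPM in CON-F. In males every OE library was above every CON library, while in females the groups overlapped with OE mostly lower. After it came Zfp329, Zfp420, Zfp189 and Zfp266, with unadjusted p of 0.00434, 0.00547, 0.00744 and 0.0109, each with the more negative change in males.

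In controls alone, CON-F minus CON-M was called for 0 of 348 members by edgeR, DESeq2 or limma, against 0.0253% of all genes (4 genes). At an unadjusted p below 0.05 by edgeR there were 3 members, against 1.55% of all genes. They were Zfp993 (log2 difference 0.88, edgeR unadjusted p = 0.00378, adjusted p = 1.0), Zfp125 (0.31, unadjusted p = 0.0217) and Zfp276 (−0.25, unadjusted p = 0.0469). Both Zfp125 and Zfp276 overlap other expressed genes. The next members by p were Zfp217 (log2 difference 0.35) and Zfp566 (−0.38), past that limit.

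**Figure D4:**
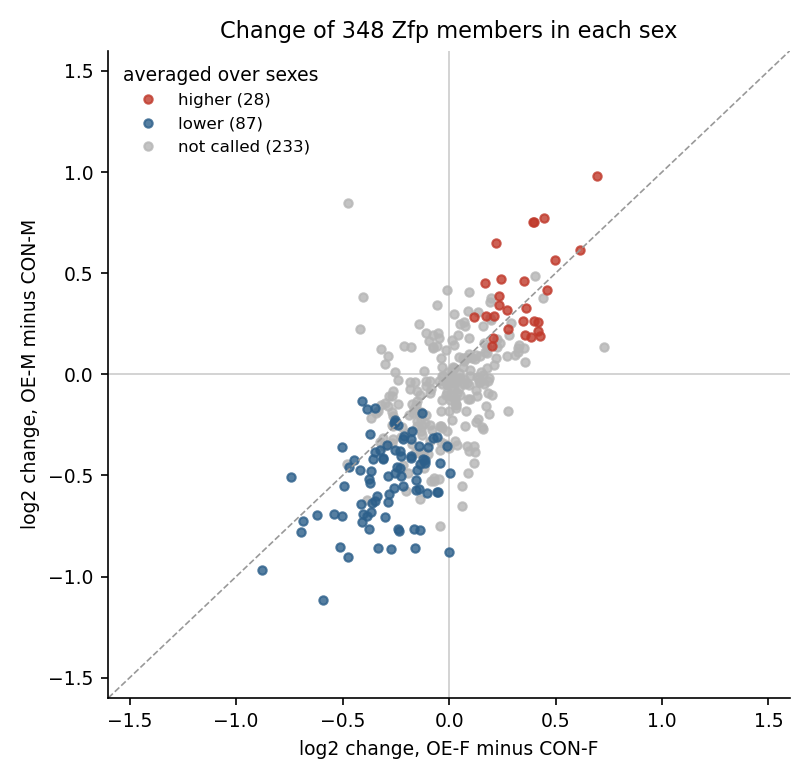
Log2 change in females (x axis, OE-F minus CON-F) and males (y axis, OE-M minus CON-M) of the 348 members, 1 point a gene, with members higher (28, red), lower (87, blue) or not called (233, grey) averaged over sexes. The dashed line marks equal changes, and most blue points lie below it. Over all 348 members the median was −0.15 in males and −0.05 in females, and no member was called for the difference between the sexes' effects.

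Position on the chromosomes was described by clusters, defined as at least 3 members whose gene starts follow each other at 500 kb or less. There were 31 clusters with 201 members, and 87 of the 348 members were on chromosome 7. In clusters 6 members rose and 51 fell (median log2 change −0.15), and outside clusters 22 of 147 rose and 36 fell (median −0.04). The shares that fell, 25.4% in clusters and 24.5% outside, were near the 26.4% of all genes, and the shares that rose were 2.99% in clusters and 15.0% outside, against 25.2% of all genes. The 169 other genes tested within the same spans had 41 rises and 15 falls, with a median log2 change of 0.16. Clustered members had a lower median level, 4.54 FPKM, than the others, at 9.19 FPKM.

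Among the 31 clusters, 19 held members that fell and none that rose, 2 the reverse, 3 both and 7 neither, and 25 had a median below 0. The largest, on chromosome 13 from 67038596 to 67827002, held 19 members with 4 falls and no rise (median log2 change −0.13). Its largest change was that of Zfp874a, with 8.88, 7.57 and 8.03 CPM in OE-M and 13.01, 8.82 and 6.92 CPM in OE-F, against 13.7, 13.3 and 11.2 CPM in CON-M and 13.2, 11.2 and 14.0 CPM in CON-F. All but OE-F replicate 1 were below the CON range (log2 change −0.53, edgeR adjusted p = 0.00622). Its neighbour Zfp874b, whose promoter shares the run printed above, had a log2 change of −0.32 (adjusted p = 0.0274), and reads of such similar copies could be split between them.

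The cluster on chromosome 7 from 29768552 to 30169750 held 15 members within 401 kb, of which 6 fell and 13 had a change below 0 (median log2 change −0.26). Zfp260, its leading member, had 38.3, 40.0 and 37.6 CPM in OE-M and 62.4, 46.6 and 42.9 CPM in OE-F, against 66.5, 65.2 and 65.4 CPM in CON-M and 63.3, 65.1 and 69.0 CPM in CON-F. No OE library reached the CON range, though OE-F replicate 1 came close (log2 change −0.57 ± 0.08 SE, edgeR adjusted p = 0.000362). In 1 cluster on chromosome 11, from 50811086 to 51072799, all 6 members were below 0, with 2 falls, led by Zfp354c (log2 change −0.50, adjusted p = 0.00151). On chromosome 9 from 20345136 to 20605409, 3 of 5 members fell, led by Zfp266 with 47.3, 46.3 and 46.1 CPM in OE-M and 64.9, 59.6 and 53.5 CPM in OE-F, against 66.0, 67.9 and 66.5 CPM in CON-M and 67.7, 62.5 and 68.1 CPM in CON-F. OE-F replicate 1 lay above the lowest CON library and the other 5 OE libraries below it (log2 change −0.34, edgeR adjusted p = 0.000893).

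The mixed clusters included chromosome 17 from 32765496 to 33631779, where 2 of 13 members rose and 5 fell, led by Zfp81 (log2 change −0.55, edgeR adjusted p = 0.000876). The other large cluster of that chromosome, from 21008903 to 23599487, had 18 members with 3 falls and no rise (median log2 change −0.12). Its leading member Zfp946 (log2 change −0.37, edgeR adjusted p = 0.0475) lost the call in 15 of the alternative settings. Over all 31 clusters the leading members ran from −0.68 (Zfp597) to 0.61 (Zfp853) on the log2 scale. The cluster on chromosome 2 from 177464733 to 178078476 went the other way, with 3 of 4 members above 0 and none called (median 0.15). With a joining distance of 250 kb there were 26 clusters with 46 falls and 5 rises in 168 members, and with 1000 kb 29 clusters with 56 falls and 7 rises in 214 members.

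**Figure D5:**
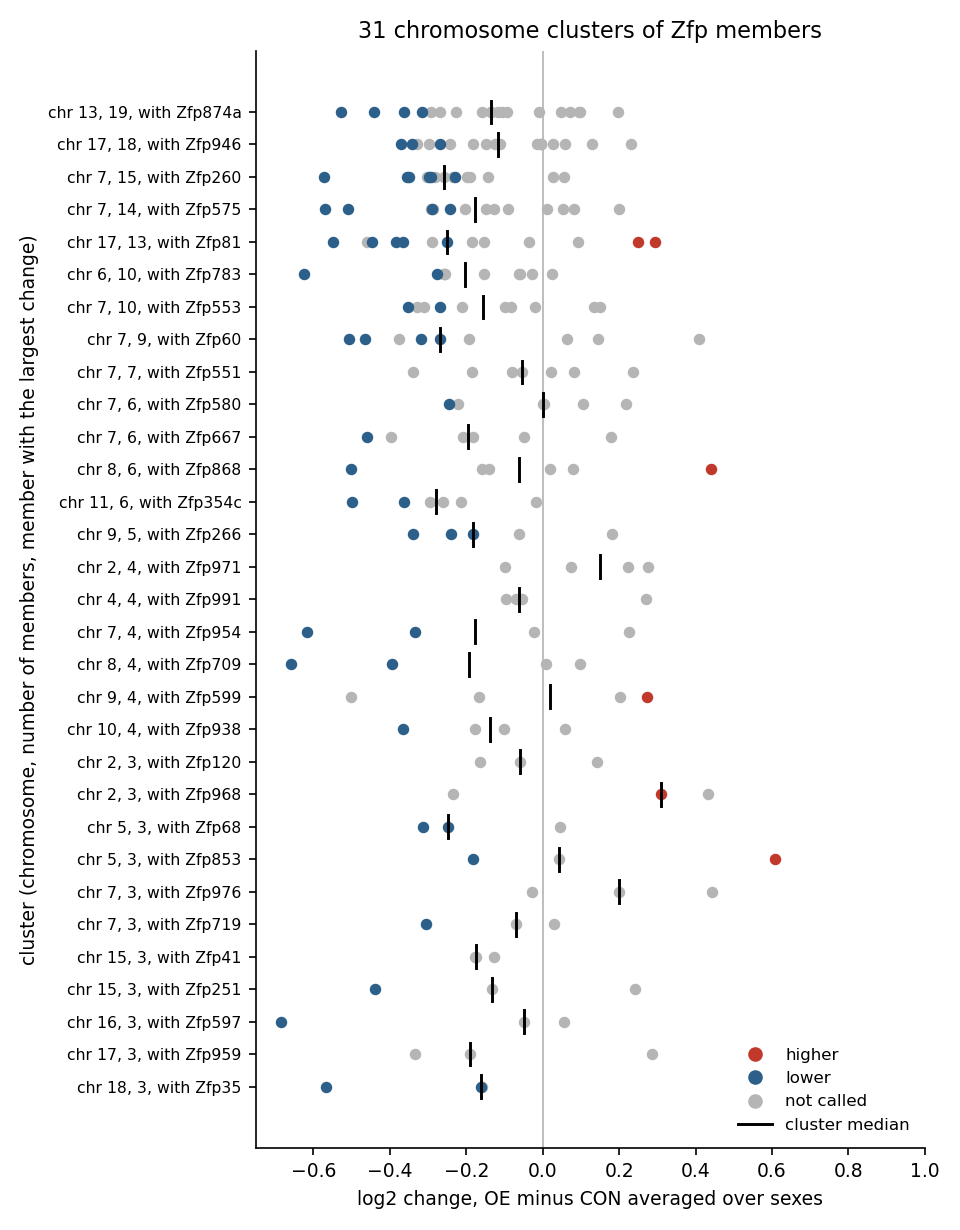
Log2 change averaged over sexes (x axis) of each member in the 31 clusters (rows, named by chromosome, number of members and the member with the largest absolute change), coloured red for higher, blue for lower and grey for not called, with the cluster median as a black bar. Medians lie left of 0 in 25 of 31 clusters, and 51 of 201 clustered members are blue and 6 red.

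The proteins through which KRAB factors act were considered as a list of 18 genes, of which 17 were tested, with 3 rises and 6 falls. The 9 called (52.9%) were near the 51.5% of all genes. Trim28, the direct partner of KRAB domains, fell by 0.32 ± 0.07 on the log2 scale (SE, edgeR adjusted p = 0.00205), and its cofactors Cbx3 (−0.55, adjusted p = 0.000896) and Cbx5 (−0.35, adjusted p = 0.00255), which encode HP1 proteins, fell too, while the third HP1 gene, Cbx1, was not called (−0.05, adjusted p = 0.652). Atf7ip, the partner of Setdb1, fell as well (−0.31, adjusted p = 0.00077), as did the deacetylase complex members Hdac2 (−0.38, adjusted p = 0.00729) and Rbbp4 (−0.39, adjusted p = 0.0057), but not Hdac1 (0.03, adjusted p = 0.799) or Chd4 (−0.06, edgeR adjusted p = 0.426). OE-F replicate 1 lay inside the CON range for Cbx5 (264.2 CPM), Hdac2 (44.5 CPM) and Rbbp4 (68.3 CPM). For Trim28 (84.73 CPM, lowest CON 84.83 CPM) and Cbx3 (66.35 CPM, lowest CON 66.62 CPM) it was just under that range, and for Atf7ip (127.1 CPM) clear of it. Of these 6 falls, only those of Atf7ip and Cbx3 were called in females alone (edgeR adjusted p = 0.032 and 0.0398). Setdb1 (0.22, adjusted p = 0.0191), Chd3 (0.23, adjusted p = 0.0168) and the DNA methyltransferase gene Dnmt3a (0.26, edgeR adjusted p = 0.0276) rose. None of these 3 rises was called without the 3 CON libraries with liver transcripts or without CON-M replicate 2, and 1 was called without CON-F replicate 3. The list's median log2 change was −0.05, against 0.02 over all genes tested.

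Counts in related C2H2 families are set beside the 25.2% of all genes that rose and the 26.4% that fell. Of 38 Zbtb genes at 1 FPKM or more 4 rose and 12 fell (31.6% lower, median log2 change −0.11), of 12 Zkscan genes 1 rose and 3 fell (median −0.10), and of 9 Zscan genes none rose and 2 fell (median −0.15). Of 14 Klf genes none rose and 8 fell (57.1% lower), with a median log2 change of −0.26. Zbtb18, a repressor needed for cortical development, fell by 0.63 ± 0.11 on the log2 scale (SE, edgeR adjusted p = 0.00059), and Klf10 had the largest change of the 14 Klf genes (log2 change −1.04, adjusted p = 0.00385).

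Circular RNAs, formed by back-splicing of exons, were listed for 52 members, 144 in all, of which 42 were tested. None was called by limma on log2(score + 5), against 0.251% of all 1989 tested, where the deposited score is scaled from back-splice reads. At an unadjusted p below 0.05 there were 2, both of Zfp644, against 9.4% of all. The most abundant was the circular RNA of Zfp609 (chromosome 9, 65794622 to 65795495), studied in muscle cells, with scores of 304, 245 and 307 in OE-M and 394, 376 and 208 in OE-F, against 294, 240 and 325 in CON-M and 401, 374 and 329 in CON-F. The groups overlapped widely (log2 difference −0.11 ± 0.27 SE, limma adjusted p = 0.909). The next by level were circular RNAs of Zfp644 (log2 difference −0.49, limma adjusted p = 0.645), Zfp532 (−0.30, adjusted p = 0.81) and, after Zfp148, Zfp827 (0.87, adjusted p = 0.532). The one of Zfp827 (chromosome 8, 79118175 to 79136663) scored 0 in CON-M replicate 3, against 94 to 283 in the other CON libraries and 98 to 279 in OE. That of Zfp148 (chromosome 16, 33421321 to 33434974) had a log2 difference of −0.40 ± 0.32 (SE, limma adjusted p = 0.728), beside −0.54 for the gene's mRNA. The median log2 difference was −0.36 over all circular RNAs tested and −0.35 over those of members, so −0.40 is near that of circular RNAs at large.

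The long non-coding table assigned 25 transcripts to members, of which 17 were tested and none was called by edgeR, against 0.494% of all 12752 transcripts tested. At an unadjusted p below 0.05 there was 1, assigned to Zfp407 (log2 change −0.45, edgeR adjusted p = 0.388), against 12.3% of all. A count of 0 in the circular and non-coding RNAs does not show that they did not change. The transcript assigned to Zfp148 (chromosome 16, 33380836 to 33504363) averaged 442 ± 49.1 CPM in OE-M and 416 ± 74.1 CPM in OE-F, against 400.1 ± 17.6 CPM in CON-M and 437 ± 55.1 CPM in CON-F (SD, n = 3 each). Its log2 change was 0.04 ± 0.10 (SE, edgeR adjusted p = 0.943), beside −0.54 for the mRNA of the same gene.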

How the data were processed

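Libraries were grouped by the genotype and sex in the labels. Per the file headers, the authors deposited expected counts and FPKM per Ensembl transcript for mRNA (119414 transcripts, 77618 with a value that is not whole) and for long non-coding RNA, and a score per circular RNA. The submitters' processing notes name cutadapt 1.9.1, HISAT2 2.0.1, HTSeq 0.6.1, bedtools 2.17.0, DESeq2 and GRCm38, without their order. No source used here gives the counting program or whether it used the strand that the dUTP libraries kept.

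Expected counts were summed per gene and rounded. The 1774 transcripts without a gene ID (0.533% to 0.601% of counts) stayed out of the tests. Genes at 0.5 FPKM or more in at least 3 of 12 libraries were tested with edgeR 4.0.16 in R 4.3.3 (TMM, quasi-likelihood, 4 group means, 8 residual degrees of freedom). The fit held all genes, and p-values were adjusted by Benjamini-Hochberg over 15786 genes. Non-coding transcripts at 0.1 FPKM in 3 libraries went through the same test, and circular RNA scores above 0 in 6 libraries through limma 3.58.1 on log2(score + 5). Levels are CPM with TMM, errors are SD over 3 libraries or SE of log2 changes, and tests were two-sided. DESeq2 1.42.0 and limma on log2 FPKM were alternatives. The fits were tested on simulated data, where those of circular and non-coding RNAs recovered few of the changes put in.

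Members and lists were chosen with earlier results of these data known. Named were the 8 largest rises and falls called with the same sign in both sexes, the 5 members of highest level, a role list, the 5 smallest p for sex and for its interaction, the leading member of each cluster, and the 5 most abundant circular RNAs where none was called. The ZNF143 motif, the promoters printed and the further members and families named beside these were chosen after values were seen. Replicate numbers did not pair libraries across groups (correlation of same-numbered libraries −0.28 to 0.12), and no 2 libraries agreed within sampling noise. Protein features planned for the members were not analysed here. The design assumed expected counts could be tested as counts after rounding, and the small RNA libraries were not used.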

Additional observations from a re-analysis of the deposited data

How the results depend on the processing

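Counts of members called moved by over 1.5 times in the settings given here, and the cause was not tested. Averaged over sexes, 51.5% of all genes were called with all libraries, 41.9% in each limma fit and 62.9% without OE-F replicate 1. The fit without the 3 control libraries with liver transcripts keeps CON-M replicates 1 and 2 and, of CON-F, replicate 3 alone. For calls lost in it, the liver transcripts and the loss of controls cannot be told apart. Averaged over sexes, rises numbered 28, and 10 and 9 with limma on log2(FPKM + 0.1) and log2(FPKM + 1), and 7 without the 3 control libraries with liver transcripts, a setting with 43 falls, against 87 with all libraries. In males 16 rises became 25 with upper quartile scaling and 7 in each limma fit and without those 3 libraries, and 81 falls became 41 without them. In females 3 rises became 7 with upper quartile scaling, 13 with DESeq2, 6 with no filter, 6 with a filter of 1 FPKM in 6 libraries, and 0 in both limma fits. The 8 female falls became 21 with DESeq2, and 4 and 5 with limma. The 3 rises of the corepressor list became 1 with each limma fit. Leaving out 1 library gave 20 to 37 rises and 67 to 137 falls averaged over sexes, 9 to 24 and 50 to 119 in males, 0 to 31 and 0 to 79 in females, and 0 to 5 rises of the corepressor list. Across these 12 fits 75 members, 18 higher and 57 lower, were called in every one.

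With the replicate block 105 members were called, 28 higher and 77 lower, 104 of them shared with the fit without it, and the counts of the other comparisons stayed within 1.5 times. Replicate numbers only name the libraries. Among single members named, Zfp946 and Zfp580 lost the call with the block too, and Zfp553, Zfp719 and Zfp57 when any of several single libraries was left out. The Zfp719 log2 change (−0.30) was 0.004016 with limma on log2(FPKM + 1). The median of the members minus that of all genes was below 0 in every setting, from −0.17 to −0.08. The median of all genes was 0.06 with upper quartile scaling and −0.06 with limma on log2(FPKM + 0.1). With 3 libraries a group and changes this small, a member that was not called may still have changed. Reads of similar copies may be split, and 47 members overlap another expressed gene.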

Other observations

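Promoters of members held a median of 15 CpG dinucleotides, against 7 over all promoters in the RefSeq table, which were not limited to genes expressed here. The median was 19 for the 20 members that rose and had a promoter, 17 for the 73 that fell and 14 for the 194 not called. Members with the ZNF143 core in the promoter had a median log2 change of −0.20, against −0.07 for members without it, a description of promoters that share descent and position. The half-site TGACGT, which TGACGTCA contains, was in 12.2% of members' promoters, against 7.51% of all.

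Of the 54 Zfp genes under 1 FPKM, 16 were tested, and 2 were higher and 1 lower by edgeR, against 25.2% and 26.4% of all genes tested.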
